A study of Homo sapiens with 18 samples.

Results

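Integrins and laminins form one adhesion system, and their transcripts were followed here through xenograft tumours of human neuroblastoma cell lines. The genes were taken by symbol: every integrin alpha and beta subunit gene and every laminin alpha, beta and gamma chain gene that the naming pattern covers. This gave 38 genes (18 integrin alpha, 8 integrin beta and 12 laminin genes) of 63677 gene identifiers in the tables. The 18 libraries came from bulk tumours grown in mice from the SKNAS, LAN-1 and KELLY lines, with 3 libraries in each of 6 groups: a Control and an Hmx1 arm per line. The labels do not say whether HMX1, a homeobox transcription factor, was raised or lowered in the Hmx1 arm or by what means. They name no mouse strain, age or treatment, give a MYCN-amp genotype in 2 of the KELLY control samples only, and do not say whether libraries came from separate animals or whether an arm was 1 clone. The p-values below therefore measure the spread between libraries, which may be technical.

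Integrins are cell surface receptors made of an alpha and a beta subunit, and the alpha subunit largely sets which ligand is bound. Laminins are basement membrane proteins in which an alpha, a beta and a gamma chain are wound together, and the alpha chain carries the main sites for integrins and dystroglycan. Neural crest cells, from which neuroblastoma derives, migrate and differentiate in contact with laminin and fibronectin through integrins that mostly carry the beta1 subunit.

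The SKNAS control libraries listed HMX1 itself at 0, all 3 of them, and the SKNAS Hmx1 libraries at 1.24, 0.193 and 0.411 TPM, a length-scaled share of the transcripts of a library. In LAN-1 it stood at 11.9, 11.7 and 11.1 TPM in the control and 11.4, 16.5 and 11.6 TPM in the Hmx1 arm, and in KELLY at 7.72, 3.92 and 5.45 and 6.40, 5.41 and 4.68 TPM. None of these differences passed the test (adjusted p = 0.127 in SKNAS, 1 in LAN-1 and 1 in KELLY), so the arms below are named as labelled. Between 21590 and 24901 genes per library were above 0, and mitochondrial transcripts took 4.47% to 33.8% of TPM, most in the first KELLY control library. On the first principal component of all tested genes the arms separated in SKNAS, while the first LAN-1 Hmx1 library lay among the LAN-1 controls at -18.0 (controls -21.4, -19.2 and -7.9, other Hmx1 libraries 38.3 and 28.1) and the KELLY arms overlapped.

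Of the 38 genes, 25 reached at least 1 TPM in at least 3 libraries and were tested, and 13 did not. The order of mean TPM over all 18 libraries began with ITGB1 (120.7), the shared beta subunit of most matrix integrins, LAMB1 (94.3), ITGB5 (51.6), ITGAE (41.6), LAMC1 (35.7), LAMA5 (29.0), ITGAV (27.4) and LAMB2 (22.5). ITGA7 (11.5), LAMA1 (10.1), ITGA4 (9.22) and ITGA3 (8.47) followed. LAMA5, LAMB1 and LAMC1 led their chains in this pooled order, but over the 6 KELLY libraries LAMA1 (mean 28.1) exceeded LAMA5 (21.3) and LAMB2 (39.1) exceeded LAMB1 (37.4).

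The genes below the level filter included every leukocyte alpha subunit but ITGAE. ITGAL, ITGAM, ITGAX and ITGAD, the alpha partners of the leukocyte subunit ITGB2, never exceeded 0.113 TPM in any library, and ITGB2 reached at most 1.03 TPM. LAMB3, a beta chain of epithelial laminin, reached at most 1.98 TPM, LAMB4 0.0562, ITGB3 1.55, ITGA10 1.04, ITGA8 0.736, ITGB6 0.479 and ITGB7 0.492 TPM. ITGB7 was above 0 in the 6 SKNAS libraries only, and was listed at 0 in the other 12. No gene of the 38 was listed at 0 in all 18 libraries.

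The ranking between genes depends on the column used, because the TPM of some genes are many times what their deposited read coverage gives. In multiples of each library's most common ratio of TPM to coverage, ITGAE stood at 12.2 to 13.8, ITGB1 at 11.1 to 11.7 and ITGA6 at 8.16 to 14.5, against 1.14 to 1.16 for LAMA2. By coverage, ITGAE ranked 10 rather than 4, ITGB1 4 rather than 1, and LAMB1 ranked 1. The shares of summed TPM given below depend on the column in the same way. Genes on the opposite strand overlap ITGAE (HASPIN), LAMB1 (DLD), LAMA5 (ADRM1), ITGB8, ITGA7 (BLOC1S1), ITGA9 and ITGB4 (GALK1), and PELO lies within ITGA1 on the same strand. No source used here states whether the authors' quantification used strand, and reads of such pairs may be shared.

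**Figure D1:**
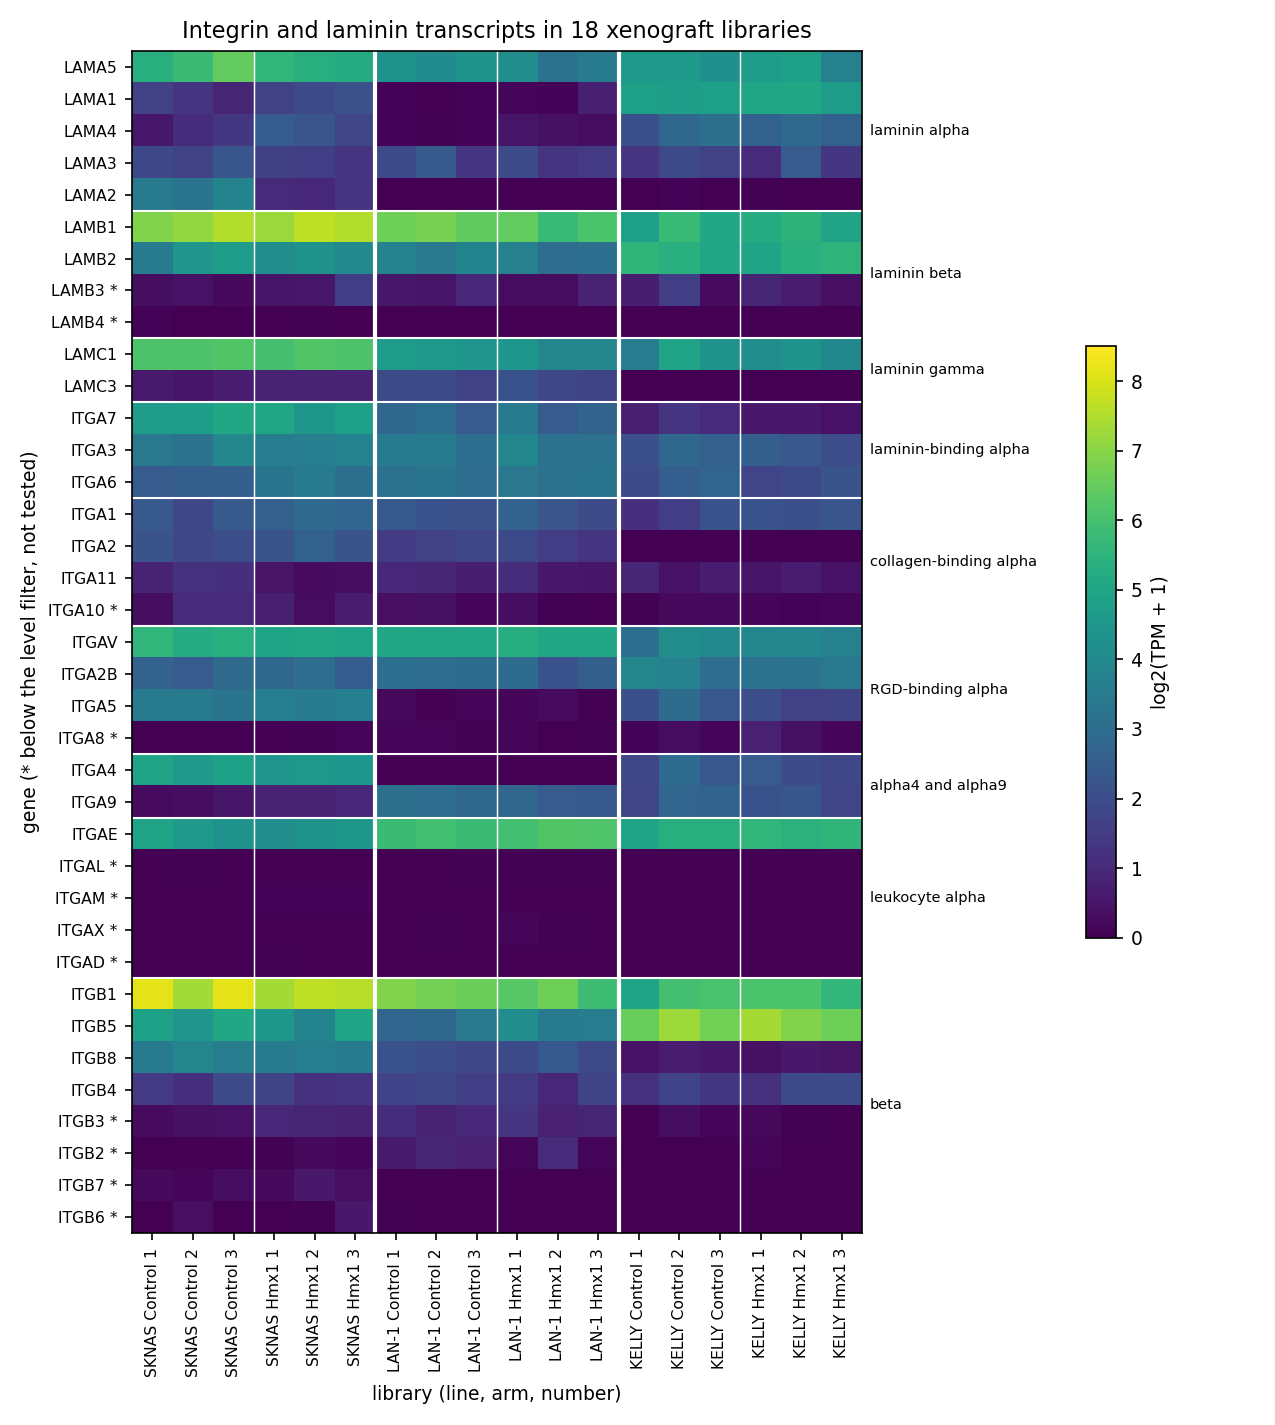
Level of 37 of the 38 genes (rows, grouped by role, asterisks for the 12 of them below the level filter) in each of the 18 libraries (columns, by line and arm), as log2(TPM + 1). ITGB1, LAMB1, LAMC1 and LAMA5 are high in SKNAS, ITGB5, LAMB2 and LAMA1 stand out in KELLY, and ITGA4 and ITGA5 are dark in LAN-1.

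In SKNAS tumours, LAMA2 and LAMA4 had the largest changes in log2(TPM + 1) among the integrin and laminin genes tested. LAMA2 was lower and LAMA4 higher in the Hmx1 libraries, and the other laminin alpha chains did not pass. The integrin subunit ITGA6 was also higher and ITGA11 lower. Of the 25 tested genes, 2 rose (background over all 18650 genes tested 4.96%), 2 fell (background 3.8%) and 21 did not pass at an adjusted p under 0.05, by limma on log2(TPM + 1) with Benjamini-Hochberg adjustment. Changes are given in log2 units, as the difference of mean log2(TPM + 1). The median log2 change of the 25 was -0.04, against 0 over all genes. In 13 of the 25 the 3 libraries of one arm all lay on one side of the other arm, and 30.9% of all tested genes did so.

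The promoters of these 4 genes are shown because they are the integrin and laminin genes past the test, from RefSeq on GRCh38.p14, 250 bases before to 50 after a start and 5′ to 3′ on the gene's strand. Capitals mark CAAGTG or its reverse complement CACTTG, the core bound by HMX-family homeodomains, searched on both strands; these letters also satisfy CANNTG, the E-box of basic helix-loop-helix factors. The windows lie at chr6:128882888-128883187 (plus strand), chr6:112254518-112254817 (minus strand), chr15:68432114-68432413 (minus strand) and, for the pair of ITGA6 starts, chr2:172427086-172427385 and chr2:172427336-172427635 (plus strand).
LAMA2: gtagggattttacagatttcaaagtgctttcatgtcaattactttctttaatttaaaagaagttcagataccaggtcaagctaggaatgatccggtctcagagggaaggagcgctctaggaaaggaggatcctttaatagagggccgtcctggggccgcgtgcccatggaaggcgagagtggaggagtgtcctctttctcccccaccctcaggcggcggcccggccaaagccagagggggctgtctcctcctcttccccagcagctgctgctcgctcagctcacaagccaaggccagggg
LAMA4: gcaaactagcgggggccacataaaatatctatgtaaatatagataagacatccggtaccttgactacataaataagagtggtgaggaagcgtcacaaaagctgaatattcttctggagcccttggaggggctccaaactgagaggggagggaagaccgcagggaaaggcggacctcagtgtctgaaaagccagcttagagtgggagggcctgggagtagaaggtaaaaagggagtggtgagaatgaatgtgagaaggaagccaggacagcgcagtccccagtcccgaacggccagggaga
ITGA11: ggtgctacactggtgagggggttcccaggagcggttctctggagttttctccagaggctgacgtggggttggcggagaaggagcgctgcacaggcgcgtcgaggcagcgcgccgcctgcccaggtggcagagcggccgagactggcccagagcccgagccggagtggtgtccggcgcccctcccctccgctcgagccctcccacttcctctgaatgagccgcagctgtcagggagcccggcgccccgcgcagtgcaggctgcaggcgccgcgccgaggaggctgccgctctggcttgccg
ITGA6 first start: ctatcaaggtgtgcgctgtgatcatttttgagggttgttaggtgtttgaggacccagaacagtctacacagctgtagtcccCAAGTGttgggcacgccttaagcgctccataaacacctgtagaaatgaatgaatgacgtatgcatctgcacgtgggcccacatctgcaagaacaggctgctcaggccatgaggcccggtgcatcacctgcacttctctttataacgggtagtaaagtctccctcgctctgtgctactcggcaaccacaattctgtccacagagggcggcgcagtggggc
ITGA6 second start: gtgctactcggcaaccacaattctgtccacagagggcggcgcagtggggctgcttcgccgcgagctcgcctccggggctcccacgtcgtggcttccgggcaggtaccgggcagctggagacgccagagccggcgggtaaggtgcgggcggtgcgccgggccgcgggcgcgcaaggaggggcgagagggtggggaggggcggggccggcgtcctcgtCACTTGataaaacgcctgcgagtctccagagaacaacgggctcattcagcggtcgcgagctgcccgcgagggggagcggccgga
The ITGA6 windows each held 1 match, 169 bases before the first start and 34 bases before the second, and the LAMA2, LAMA4 and ITGA11 windows held none. Over the 33 windows found for 26 of the 38 genes, 7 (21.2%) held a match, as did 11.5% of the 35116 windows of all genes. A match describes the letters only, and binding was not measured.

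LAMA2 (ENSG00000196569, GRCh37 chromosome 6, 129204342 to 129837714) encodes the alpha2 chain of merosin, the laminin of muscle and peripheral nerve basement membranes. It stood at 10.5, 8.59 and 12.8 TPM in the control libraries and at 1.04, 0.957 and 1.44 TPM in the Hmx1 libraries. Every Hmx1 library was below every control library, and the change was -2.43 log2 units (SE 0.14, adjusted p = 1.79e-09). In these bulk tumours, fewer cells of a type that makes LAMA2 and less LAMA2 RNA per cell cannot be told apart.

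LAMA4 (GRCh37 chromosome 6, 112429963 to 112576141) encodes the alpha4 chain of vascular and other mesenchymal laminins, and went the other way. It was listed at 0.446, 1.16 and 1.60 TPM in the control arm and 4.50, 3.77 and 2.43 TPM in the Hmx1 arm. The arms did not overlap, and the change was 1.16 log2 units (SE 0.25, adjusted p = 0.00601). With the SKNAS libraries fitted alone, the adjusted p was 0.0638, above the threshold for a call.

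Of the other laminin alpha chains, LAMA1 ranged over 2.14, 1.46 and 0.840 TPM in the control and 2.22, 2.69 and 3.36 TPM in the Hmx1 arm. These arms did not overlap, but the change of 0.62 log2 units (SE 0.22, adjusted p = 0.0961) did not pass; without the first control library the adjusted p was 0.0449. LAMA5, an alpha chain widespread in adult basement membranes, stood at 38.8, 54.2 and 87.2 against 47.3, 38.8 and 36.5 TPM (-0.48 log2 units, SE 0.30, adjusted p = 0.468). LAMA3, the alpha chain of epithelial laminins, gave -0.41 log2 units (SE 0.32, adjusted p = 0.598). The share of LAMA2 in the summed TPM of the alpha chains was 14.7% ± 4.01 (SD, n = 3) in the control and 2.33% ± 0.749 in the Hmx1 arm, and that of LAMA4 was 1.35% ± 0.472 and 7.03% ± 1.42. Shares by coverage would differ from these shares of TPM. In the multiples of TPM to coverage given above, LAMA5 stood at 4.41 to 6.08 against 1.14 to 1.16 for LAMA2.

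The beta and gamma chains did not pass. LAMB1 stood at 117.7, 138 and 182 TPM in the control and 149, 206 and 183 TPM in the Hmx1 arm, LAMC1 at 68.3, 69.2 and 72.1 and 62.1, 72.4 and 69.4 TPM. LAMB2 stood at 10.6, 20.4 and 24.5 and 16.9, 19.8 and 15.7 TPM. All 3 overlapped between the arms, with log2 changes of 0.31, -0.04 and -0.01 and adjusted p of 0.603, 0.984 and 1. Summed over the 12 laminin genes, TPM came to 311 ± 68.1 (SD, n = 3) in the control and 317 ± 30.7 in the Hmx1 arm.

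Among the integrins, ITGA6 (GRCh37 chromosome 2, 173292082 to 173371181) encodes the alpha6 subunit, a laminin receptor with ITGB1 or ITGB4. It rose from 4.49, 4.91 and 4.98 TPM to 8.89, 10.2 and 7.84 TPM, with every Hmx1 library above every control library (0.78 log2 units, SE 0.20, adjusted p = 0.0164). The call was lost when the first control, the first Hmx1 or the second Hmx1 library was left out (adjusted p at most 0.085). On coverage ITGA6 was below the level filter and was not tested, and its multiple of TPM to coverage ran from 8.16 to 14.5 between libraries. Its beta partners did not pass: ITGB1 stood at 286, 158 and 283 TPM in the control and 161, 205 and 192 TPM in the Hmx1 arm (-0.34 log2 units, SE 0.28, adjusted p = 0.626), and the second control library lay below all Hmx1 libraries. ITGB4 gave -0.14 log2 units (SE 0.25, adjusted p = 0.878). The other laminin-binding subunits, ITGA3 and ITGA7, gave 0.14 and -0.08, both with overlapping arms.

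ITGA11 (GRCh37 chromosome 15, 68594050 to 68724501) encodes a collagen-binding subunit of mesenchymal cells and was low throughout. It stood at 0.762, 1.30 and 1.20 TPM in the control and 0.366, 0.189 and 0.239 TPM in the Hmx1 arm, without overlap (-0.72 log2 units, SE 0.18, adjusted p = 0.0147). The call was lost without the second control, the third control or the second Hmx1 library (adjusted p at most 0.0673). On coverage and on FPKM ITGA11 was below the level filter and was not tested. The other collagen-binding subunits lay above 0 without passing: ITGA1 gave 0.58 log2 units (SE 0.24, adjusted p = 0.186) and ITGA2 0.34 log2 units (SE 0.17, adjusted p = 0.32), both without overlap between the arms.

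ITGA4 and ITGA9, which bind fibronectin, tenascin or VCAM1, stood at 28.6, 22.5 and 27.9 against 20.7, 22.0 and 21.2 TPM and at 0.202, 0.254 and 0.399 against 0.788, 0.783 and 0.935 TPM. Both sets of arms were apart, ITGA4 lower and ITGA9 higher in the Hmx1 arm, and neither passed (adjusted p = 0.621 and 0.225). ITGA9 passed at a pseudocount of 0.1, with 1.31 log2 units (adjusted p = 0.0172), and with the SKNAS libraries fitted alone (adjusted p = 0.0155). ITGAV, the alpha subunit that pairs with ITGB5 and ITGB8, stood at 47.2, 36.2 and 38.9 and 30.2, 31.3 and 28.5 TPM (-0.42 log2 units, SE 0.22, adjusted p = 0.32). ITGB5 stood at 28.0, 20.5 and 32.7 and 21.6, 13.3 and 30.1 TPM, and ITGAE, the CD103 subunit, at 29.7, 23.0 and 19.4 and 17.0, 19.2 and 21.6 TPM, both overlapping between arms. ITGA2B, ITGA5, ITGB8 and LAMC3 gave 0.10, 0.17, -0.08 and 0.23 log2 units and did not pass.

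**Figure D2:**
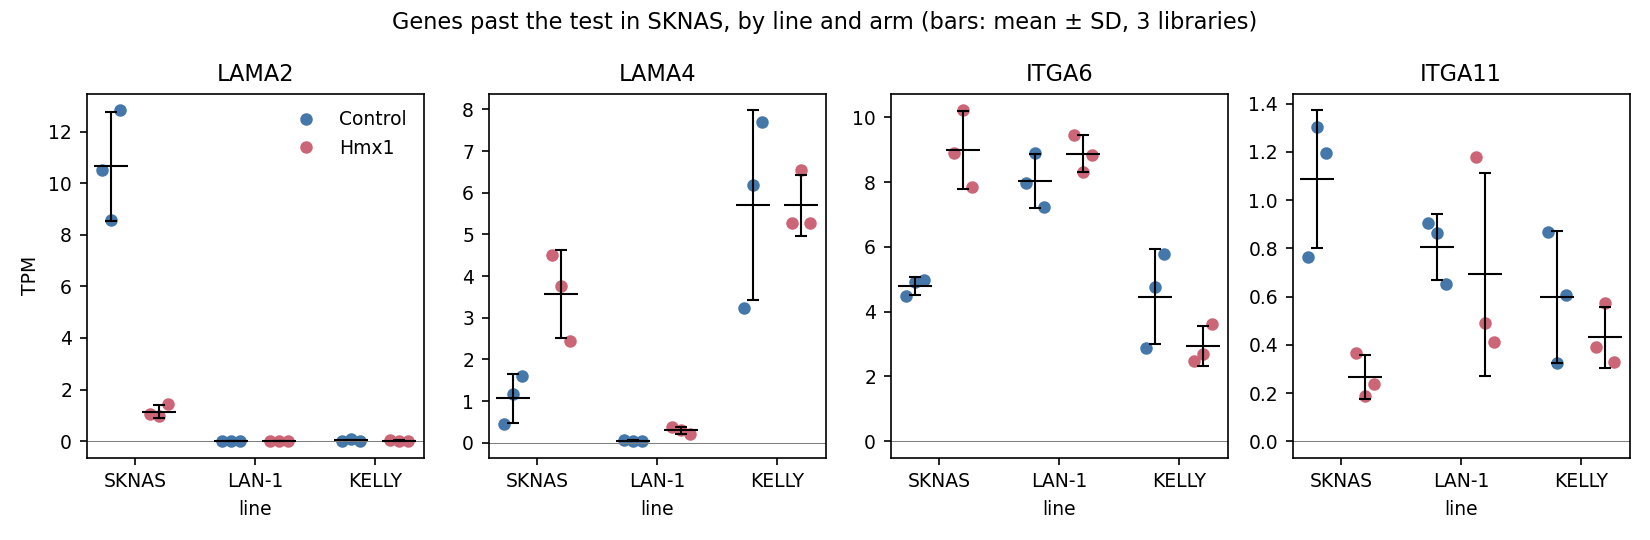
TPM of the 4 genes past the test in SKNAS, by line and arm. Points are libraries and bars are the mean ± SD of 3 libraries; the LAMA2 points of SKNAS Hmx1 lie between 0.957 and 1.44 TPM, below every SKNAS control, and LAMA2 lies at or near 0 in LAN-1 and KELLY.

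Levels of other cell types' markers also differed between the SKNAS arms. The 8 fibroblast markers summed to 1135 to 1336 TPM in the control and 802 to 896 TPM in the Hmx1 arm, with 0 that rose, 3 that fell (PDGFRA, LUM and DPT) and 5 that did not pass. Of those 5, the means of DCN (69.3 to 101 TPM), PDGFRB (26.9 to 39.9 TPM) and COL1A2 (10.8 to 12.4 TPM) were higher in the Hmx1 arm. Those of COL1A1 (344.7 to 210.8 TPM) and COL3A1 (602.4 to 391.6 TPM) were lower. The 11 leukocyte markers summed to 78.1 to 106 and 191 to 288 TPM, nearly all of it PTPRC (102, 75.7 and 97.9 against 187, 285 and 219.8 TPM). Of the 4 tested, PTPRC rose and CD14 fell (1.33 to 0.523 TPM on average, adjusted p = 0.0277), LYZ averaged 0.220 TPM in the control and was listed at 0 in the Hmx1 arm, and CD3E was listed at 0 in all 18 libraries. CSF1R and ADGRE1, both below the level filter, were higher in every Hmx1 library than in any control library (0.0386 to 0.274 and 0.0728 to 0.325 TPM on average). CD68 averaged 0.546 and 0.706 TPM and FCER1G 0.792 and 0.750 TPM, neither passing. AIF1, below the filter, averaged 0 and 0.0676 TPM. The 9 endothelial markers summed to 5.21 to 6.81 and 6.69 to 9.46 TPM. PECAM1 was listed at 0 in all 18 libraries and TEK rose (1.07 to 3.22 TPM, adjusted p = 1.05e-05), while the means of VWF (0.519 to 0.202 TPM), KDR (0.203 to 0.104 TPM), TIE1 (0.866 to 0.292 TPM) and ESAM (0.578 to 0.240 TPM) were lower in the Hmx1 arm, with VWF and KDR not passing and TIE1 and ESAM below the level filter. The means of CDH5 (2.52 to 3.47 TPM), CLDN5 (0 to 0.0288 TPM) and EMCN (0.0448 to 0.134 TPM) were higher there. CDH5 and CLDN5 did not pass, and EMCN was below the filter. The 8 skeletal muscle markers summed to 8.42 to 13.5 and 4.94 to 8.06 TPM, and 1 of 3 tested, TNNI2, fell (adjusted p = 0.0141). The 4 skin epithelium markers summed to 18.6 to 26.1 and 14.6 to 15.1 TPM with 0 called, and the 5 Schwann cell markers to 6.11 to 7.39 and 5.91 to 10.4 TPM with S100B higher (adjusted p = 0.0179). The 6 mesenchymal neuroblastoma markers summed to 647 to 722 and 447 to 485 TPM, and the 8 noradrenergic ones to 979.9 to 1126 and 827 to 868 TPM, with 0 that rose and 2 that fell in each. The part of these shifts in the laminin and integrin changes was not tested. No source used here states whether mouse reads were removed.

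In LAN-1 tumours, none of the 25 tested genes passed in either direction (limma; background 0.172% higher and 0.279% lower). The count at an unadjusted p under 0.05 was 3, and the count of calls was 0 in every alternative tried. Log2 changes ran from -0.67 for LAMA5 to 0.72 for ITGB5, which had the smallest adjusted p (0.591). In 7 of 25 genes the arms did not overlap, against 15.8% of all tested genes.

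The LAN-1 Hmx1 libraries were unlike each other in several laminin chains, none of which passed. LAMA5 stood at 19.4, 16.3 and 20.1 TPM in the control and 16.8, 8.17 and 10.3 TPM in the Hmx1 arm, LAMB1 at 98.3, 106.5 and 85.4 and 87.1, 52.4 and 67.7 TPM, and LAMC1 at 25.2, 22.3 and 20.4 and 21.2, 13.5 and 14.2 TPM. LAMB2 stood at 12.9, 9.53 and 13.4 and 11.9, 7.14 and 7.55 TPM. In each of the 4, Hmx1 replicates 2 and 3 were below all controls and the first Hmx1 library was not. ITGB1 showed 116.5, 105 and 94.9 against 77.2, 96.6 and 57.7 TPM, with the arms overlapping. Leaving out the first Hmx1 library, which lay among the controls on the first principal component, can only enlarge the falls of these 4. They were named by that order. LAMA5, LAMB1, LAMC1 and LAMB2 then gave -0.94, -0.68, -0.67 and -0.62 log2 units (limma, adjusted p = 0.251, 0.313, 0.372 and 0.419). The integrin subunits ITGA2B and ITGA9 gave -0.69 and -0.64 log2 units in the same fit (adjusted p = 0.298 and 0.336). The count of the 25 at an unadjusted p under 0.05 was then 6 rather than 3, while over all 18650 genes it was 2158 rather than 1341. ITGB5 stood at 5.91, 6.26 and 9.75 and 17.0, 10.2 and 10.8 TPM, with every Hmx1 library above every control.

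In KELLY tumours, 0 of 25 passed as well (limma; background 0.0483% higher and 0.0429% lower), 3 had an unadjusted p under 0.05, and no alternative gave a call. The fibronectin receptor subunit ITGA5 came nearest, at 3.23, 6.99 and 3.95 TPM in the control and 3.09, 2.20 and 2.38 TPM in the Hmx1 arm (-0.64 log2 units, SE 0.20, adjusted p = 0.437). Its arms did not overlap, nor did those of ITGA7 and ITGAE, making 3 of 25 against 6.67% of all tested genes. ITGA6 went from 2.86, 4.76 and 5.77 to 2.46, 2.69 and 3.63 TPM (-0.45 log2 units, SE 0.20, adjusted p = 0.686). The 9 tested laminins lay within -0.12 to 0.12 log2 units, and LAMA1 stood at 27.2, 26.4 and 26.6 and 30.7, 33.1 and 24.5 TPM. Without the first KELLY control library LAMC1 gave -0.49 log2 units (limma, adjusted p = 0.336), LAMA4 -0.25 and LAMB1 -0.16. The other tested laminins gave -0.15 (LAMA3), -0.02 (LAMA2), -0.01 (LAMA5), 0 (LAMC3), 0.09 (LAMB2) and 0.13 (LAMA1). ITGA5, ITGA6 and ITGA9 gave -0.83, -0.68 and -0.65 log2 units in that fit (adjusted p = 0.108, 0.1315 and 0.183), that of ITGA5 being the smallest of the 25. The library left out was the lowest KELLY control in LAMC1, LAMA4, LAMB1, ITGA5, ITGA6 and ITGA9. Leaving it out can only lower the changes of those genes. Of the 25, 19 rather than 14 then lay below 0, while the median over all genes was -0.097 rather than 0.017.

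**Figure D3:**
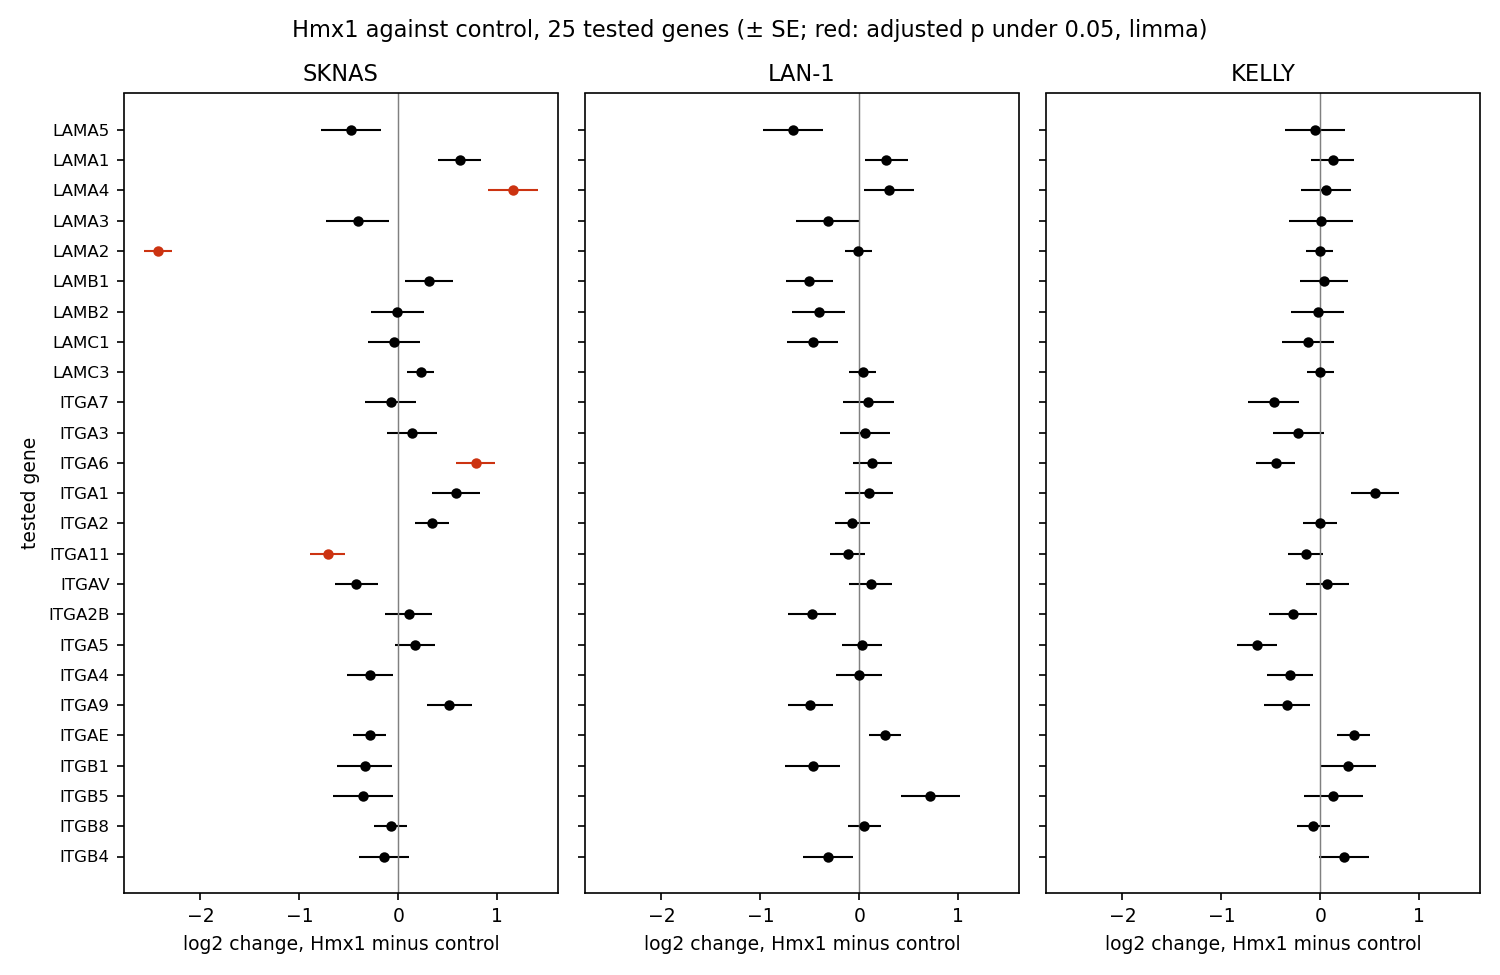
Log2 change of TPM (Hmx1 minus control, on log2(TPM + 1)) of the 25 tested genes in each line, with bars of 1 SE from the fit and red for an adjusted p under 0.05. The LAMA2 change of -2.43 in SKNAS is the farthest from 0, and all LAN-1 and KELLY points lie between -0.67 and 0.72.

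The Hmx1 changes themselves were set against each other by an interaction term. The LAMA2 change in SKNAS differed from that in LAN-1, SKNAS minus LAN-1, by -2.42 log2 units (SE 0.20, adjusted p = 4.15e-07), the 1 call among the 25 (background 2.98% higher and 2.01% lower). Against KELLY it differed by -2.42 log2 units (SE 0.20, adjusted p = 4.37e-07), and ITGA6 differed in the other direction by 1.23 log2 units (SE 0.28, adjusted p = 0.013), making 2 calls (background 2.5% and 2.35%). LAMA2 was listed at 0 in 5 of 6 LAN-1 and 2 of 6 KELLY libraries and reached at most 0.0192 and 0.0636 TPM there, so no fall of LAMA2 could have been seen in those lines. The ITGA6 difference was not called with only SKNAS and KELLY libraries fitted (adjusted p = 0.0606), and was not tested on coverage. The LAMA4 and ITGA11 differences did not pass against LAN-1 (adjusted p = 0.241 and 0.246) or KELLY (0.0998 and 0.261), and the SKNAS contrast enters both comparisons. Between LAN-1 and KELLY, 0 of 25 differed (limma; background 0.102% and 0.107%), with 1 at an unadjusted p under 0.05 and 0 in every alternative.

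Without the first KELLY control library, which had the highest mitochondrial share, the count of differences between SKNAS and KELLY was 5: LAMA4, ITGA9 and ITGA5 joined LAMA2 and ITGA6. That library was the lowest KELLY control in LAMA4, ITGA9 and ITGA5, so leaving it out can only enlarge their differences. Median-ratio scaling gave the same 5 names. Without mitochondrial transcripts, with quantile normalization and on FPKM, ITGA5 alone joined, with 2 higher and 1 lower. Over all 18650 genes the count rose too, from 904 to 1172 without that library and to 1367 with median-ratio scaling.

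Partners of the integrins and laminins were counted in SKNAS against the same background, 4.96% of all tested genes higher and 3.8% lower. The lists of partners were chosen with earlier results of these data known, so their shares are no test of enrichment. Of 33 tested adhesion complex genes, which tie integrins to actin, 2 rose and 2 fell, 6.06% and 6.06% against 4.96% and 3.8%. Both shares are near the background. PARVA, an integrin-linked kinase partner, rose, from 1.52 ± 0.725 (SD, n = 3) to 5.64 ± 2.29 TPM (change of 1.39 log2 units, SE 0.29, adjusted p = 0.00452), and PTK2B, a relative of focal adhesion kinase, from 2.20 ± 0.896 (SD, n = 3) to 4.85 ± 0.509 TPM (change of 0.90 log2 units, SE 0.24, adjusted p = 0.0247). TES, a focal adhesion LIM protein, fell, from 33.5 ± 3.40 (SD, n = 3) to 19.8 ± 4.90 TPM (change of -0.75 log2 units, SE 0.19, adjusted p = 0.0155). PARVA lost its call with SKNAS fitted alone, and PTK2B and TES lost theirs in 6 of 14 and 5 of 16 alternatives.

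Of 17 basement membrane components and other laminin receptors, 2 rose and 3 fell, 11.8% and 17.6% against 4.96% and 3.8%. As the list was chosen with earlier results known, enrichment was not tested by these shares. NTN4, a netrin that binds laminin, rose, from 0.857 ± 0.318 (SD, n = 3) to 3.12 ± 0.501 TPM (change of 1.16 log2 units, SE 0.17, adjusted p = 0.000145). COL18A1, a basement membrane collagen, fell, from 7.38 ± 1.54 (SD, n = 3) to 3.09 ± 0.504 TPM (change of -1.03 log2 units, SE 0.28, adjusted p = 0.0288) and NID1, the nidogen that links laminin to collagen IV, from 39.6 ± 1.81 (SD, n = 3) to 21.5 ± 1.502 TPM (change of -0.85 log2 units, SE 0.22, adjusted p = 0.0166). COL18A1 and NID1 were not called in 6 and 5 of 16 alternatives.

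Of 20 tested other integrin ligands, 4 rose and 5 fell, 20% and 25% against 4.96% and 3.8%. This list too was chosen with earlier results known, and its shares are no test of enrichment. EDIL3, a ligand of ITGAV integrins, fell, from 8.23 ± 1.27 (SD, n = 3) to 0.748 ± 0.115 TPM (change of -2.39 log2 units, SE 0.12, adjusted p = 4.51e-10), and SPP1 (osteopontin) from 77.4 ± 16.7 (SD, n = 3) to 16.1 ± 1.65 TPM (change of -2.18 log2 units, SE 0.16, adjusted p = 2.88e-08). ICAM1, the ligand of the leukocyte integrins, rose, from 1.21 ± 0.238 (SD, n = 3) to 5.65 ± 1.05 TPM (change of 1.58 log2 units, SE 0.13, adjusted p = 2.55e-07), while those integrins stayed below the level filter. NTN4, EDIL3, SPP1 and ICAM1 were called under every alternative that tested them. The median log2 change of these lists in SKNAS was -0.08, -0.0036 and -0.17, against 0 over all genes.

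In LAN-1 none of these genes passed. In KELLY 1 gene each of 2 lists did. DAG1, the dystroglycan receptor for laminin alpha chains, stood at 10.5, 30.6 and 21.9 TPM in the control and 1.46, 2.45 and 1.499 TPM in the Hmx1 arm, without overlap (log2 change -2.87, SE 0.43, adjusted p = 0.00861). DAG1 also varied within 1 group, at 34.3, 8.51 and 39.1 TPM in the SKNAS controls. On deposited coverage the KELLY change was -1.65 log2 units and not a call (adjusted p = 0.0909), nor was it one with a pseudocount of 5 or with the KELLY libraries fitted alone (adjusted p = 0.0523 and 0.648). THBS2, a thrombospondin, rose, from 0.846 ± 0.647 (SD, n = 3) to 4.14 ± 1.87 TPM (change of 1.47 log2 units, SE 0.23, adjusted p = 0.00863), and lost the call in 3 alternatives, 1 of them without KELLY control replicate 3.

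The cell lines differed far more than the arms did, in these genes as over all genes tested. Among control tumours, SKNAS exceeded LAN-1 in 11 of 25 genes and was below it in 4 (background 31.5% and 20.5%), and 10 did not pass. SKNAS exceeded KELLY in 14 and was below it in 7 (background 49.5% and 16.1%). LAN-1 exceeded KELLY in 11 and was below it in 6 (background 38.2% and 13.6%). These comparisons share control libraries. Line cannot be told apart from anything else that was handled by line, as each line is its own set of tumours.

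In TPM the median gene of all 18650 differed between the lines, by 0.18 (SKNAS minus LAN-1), 0.54 (SKNAS minus KELLY) and 0.34 (LAN-1 minus KELLY) on the log2 scale, and by 0.05, 0.03 and 0 after median-ratio scaling. Of the 25 genes, 16, 14 and 12 lay above those TPM medians. After median-ratio scaling the split of higher and lower calls was 12 and 4, 13 and 7, and 8 and 7, so the majority of higher calls of LAN-1 over KELLY largely went. Without mitochondrial transcripts the medians over all genes were 0.34, 0.44 and 0.08. The split was then 15 and 4, 13 and 7, and 8 and 7. No called gene changed direction in any alternative.

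Taking all 6 libraries of a line, ranges of TPM did not overlap for 14 genes between SKNAS and LAN-1 (all tested genes 46.6%), for 19 between SKNAS and KELLY (50.8%) and for 15 between LAN-1 and KELLY (38.8%).

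The laminin alpha chain that was most abundant differed by line. LAMA5 stood at 38.8, 54.2 and 87.2 TPM in the SKNAS control libraries, 19.4, 16.3 and 20.1 in those of LAN-1 and 22.5, 22.9 and 18.3 in those of KELLY. SKNAS exceeded LAN-1 by 1.57 log2 units (SE 0.30, adjusted p = 0.000313) and KELLY by 1.39 log2 units (SE 0.30, adjusted p = 0.000692), and LAN-1 and KELLY overlapped (-0.18 log2 units, SE 0.30, adjusted p = 0.646). LAMA1, the alpha chain of the embryonic laminin-111, stood at 2.14, 1.46 and 0.840 TPM in the SKNAS control libraries, 0.0482, 0 and 0.0534 in those of LAN-1 and 27.2, 26.4 and 26.6 in those of KELLY. Every KELLY library of both arms was above every SKNAS and LAN-1 library, and SKNAS minus KELLY gave -3.52 log2 units (SE 0.22, adjusted p = 2.91e-10). Over 6 libraries, LAMA5 made up 71.3% to 82.8% of alpha chain TPM in SKNAS, 79.2% to 92.4% in LAN-1 and 28.4% to 41.4% in KELLY, where LAMA1 made up 45.4% to 56.0%. Shares of coverage were not computed.

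LAMA2 was a transcript of the SKNAS tumours, with 0.957 to 12.8 TPM over both arms against at most 0.0636 TPM in KELLY and 0.0192 in LAN-1. LAMA4 ran from 3.23 to 7.71 TPM in KELLY and 0.446 to 4.50 in SKNAS to 0.0401 to 0.389 in LAN-1, and all 3 control comparisons passed, that of SKNAS and LAN-1 not with a pseudocount of 5 or on coverage. LAMA3 lay at 1.49 to 3.79 TPM in SKNAS, 1.47 to 4.22 in LAN-1 and 1.05 to 4.46 in KELLY, and no pair of lines differed beyond the spread. Fibroblast markers, of cells that commonly make LAMA2 and LAMA4, summed to 1135 to 1336 TPM in SKNAS controls, 21.0 to 30.8 in LAN-1 and 91.7 to 169 in KELLY controls. COL1A1 alone averaged 75.6 TPM in KELLY controls. By limma, SKNAS controls were above LAN-1 in all 8 markers and above KELLY in 6. LAN-1 controls were above KELLY in 3 of the 8 and below it in 4. The part of fibroblast markers in the line differences was not tested.

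LAMB1 was the main beta chain in SKNAS and LAN-1, and shared that place with LAMB2 in KELLY. LAMB1 stood at 117.7, 138 and 182 TPM in the SKNAS control libraries, 98.3, 106.5 and 85.4 in those of LAN-1 and 27.0, 52.2 and 32.8 in those of KELLY. LAMB2, the beta chain of synaptic and mature basement membranes, stood at 10.6, 20.4 and 24.5 TPM in the SKNAS control libraries, 12.9, 9.53 and 13.4 in those of LAN-1 and 45.7, 40.8 and 31.6 in those of KELLY. LAMB1 was higher in SKNAS than in KELLY by 1.97 log2 units (SE 0.24, adjusted p = 1.84e-06) and in LAN-1 than in KELLY by 1.40 log2 units (SE 0.24, adjusted p = 0.000129), while SKNAS and LAN-1 gave 0.57 log2 units (SE 0.24, adjusted p = 0.0567). LAMB2 was lower than in KELLY in both, LAN-1 minus KELLY giving -1.64 log2 units (SE 0.27, adjusted p = 7.28e-05) and SKNAS minus KELLY -1.11 log2 units (SE 0.27, adjusted p = 0.00156), the latter not called on coverage (adjusted p = 0.118). Its share of beta chain TPM was 42.9% to 62.3% in KELLY, 7.85% to 12.8% in SKNAS and 8.19% to 13.4% in LAN-1. By coverage this share may differ, as the multiples ran from 2.4 to 6.98 for LAMB2 and 3.76 to 5.03 for LAMB1.

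LAMC1, the gamma chain of most laminins, stood at 68.3, 69.2 and 72.1 TPM in the SKNAS control libraries, 25.2, 22.3 and 20.4 in those of LAN-1 and 10.7, 30.0 and 19.8 in those of KELLY. SKNAS exceeded LAN-1 by 1.59 log2 units (SE 0.26, adjusted p = 6.06e-05) and KELLY by 1.85 log2 units (SE 0.26, adjusted p = 8.56e-06), and LAN-1 and KELLY overlapped. LAMC3 was listed at 0 in all 6 KELLY libraries, at 0.402 to 0.806 TPM in SKNAS and at 2.22 to 3.44 TPM in LAN-1, where it made up 9.82% to 15.7% of gamma chain TPM. LAN-1 was above SKNAS in LAMC3 (adjusted p = 4.19e-07).

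**Figure D4:**
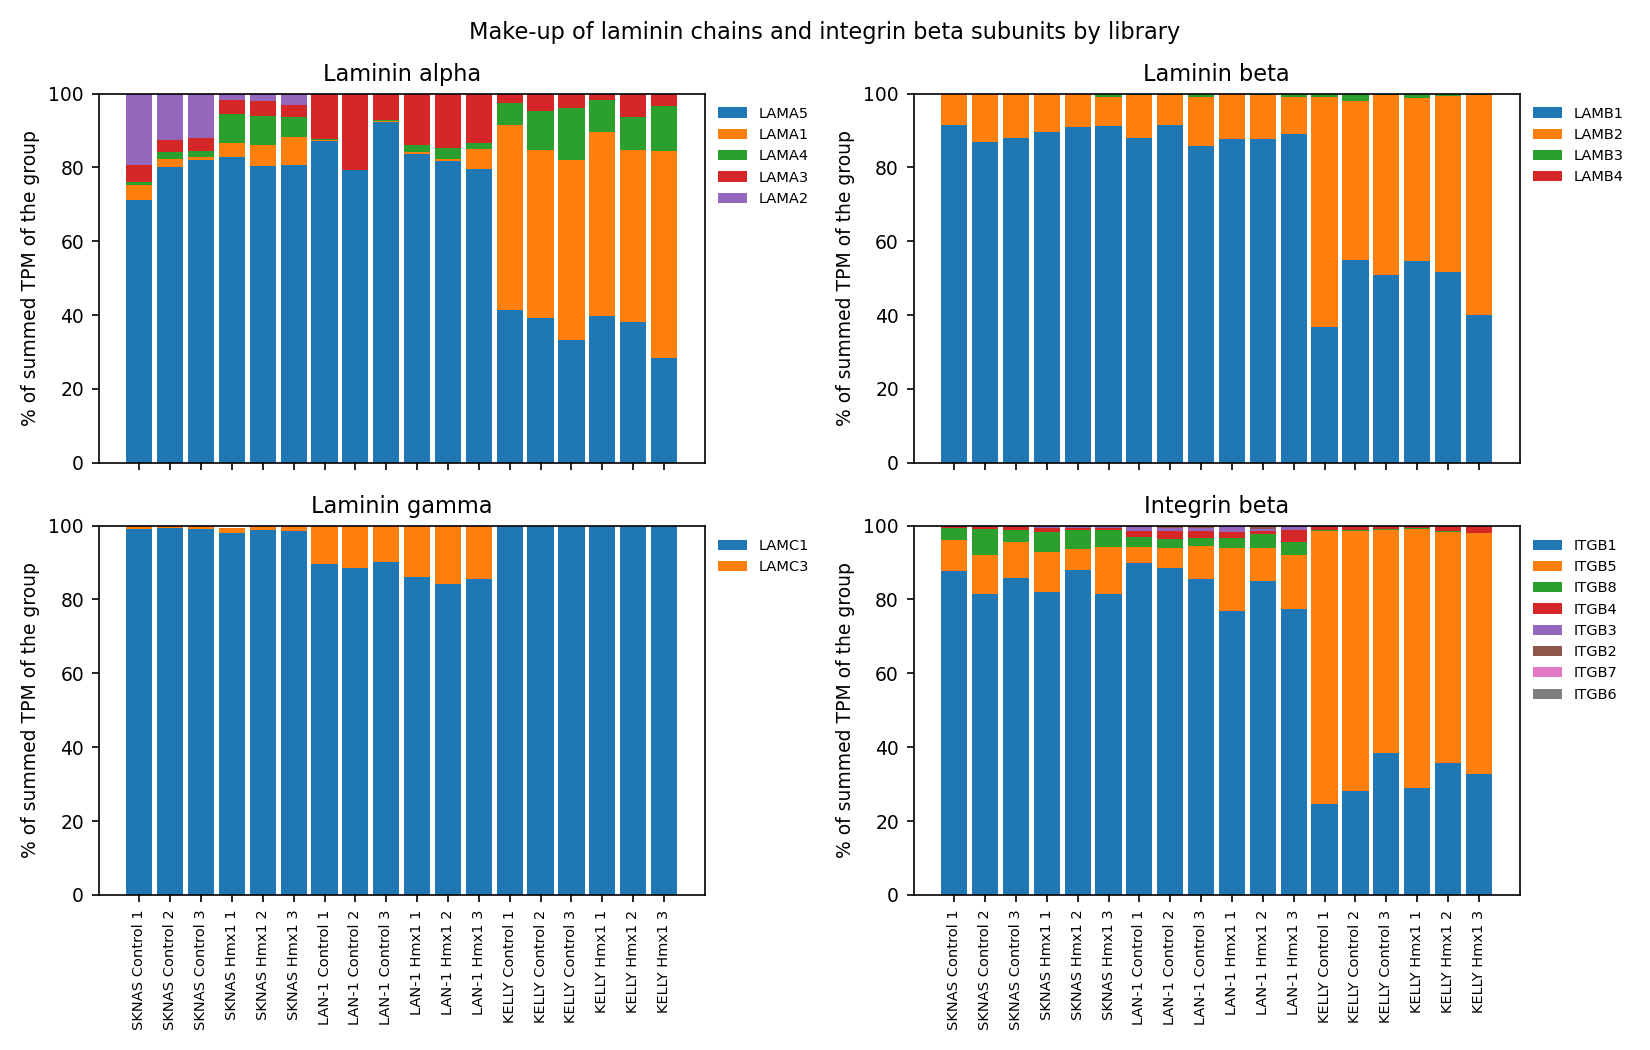
Share (percent) of each gene in the summed TPM of the laminin alpha, beta and gamma chains and the integrin beta subunits, 1 bar per library, with 1 gene not drawn. LAMA1, LAMB2 and ITGB5 take 45.4% to 56.0%, 42.9% to 62.3% and 60.1% to 74.1% of their groups in the 6 KELLY libraries, and LAMA2 has a visible share in SKNAS only.

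The leading integrin beta subunit differed by line as well, ITGB1 in SKNAS and LAN-1 and ITGB5 in KELLY. ITGB1 stood at 286, 158 and 283 TPM in the SKNAS control libraries, 116.5, 105 and 94.9 in those of LAN-1 and 30.2, 61.0 and 65.2 in those of KELLY. Each pair of lines differed, SKNAS over LAN-1 by 1.15 log2 units (SE 0.28, adjusted p = 0.00216) and LAN-1 over KELLY by 1.07 log2 units (SE 0.28, adjusted p = 0.00387). ITGB5, which pairs with ITGAV to bind vitronectin, stood at 28.0, 20.5 and 32.7 TPM in the SKNAS control libraries, 5.91, 6.26 and 9.75 in those of LAN-1 and 91.1, 153 and 102 in those of KELLY. Every KELLY library of both arms was above those of the other lines, LAN-1 minus KELLY giving -3.80 log2 units (SE 0.30, adjusted p = 1.59e-08) and SKNAS minus KELLY -2.04 log2 units (SE 0.30, adjusted p = 1.44e-05). ITGB5 made up 60.1% to 74.1% of beta subunit TPM in KELLY, against 5.69% to 12.8% in SKNAS and 4.55% to 17.0% in LAN-1. These are shares of TPM, in which ITGB1 ranks higher than it does by coverage.

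ITGB8, the subunit of the TGF-beta activating integrin, was highest in SKNAS at 10.2 to 13.7 TPM over both arms, then LAN-1 at 2.56 to 4.03 and KELLY at 0.295 to 0.549, with no overlap between any pair of lines. ITGB4, the hemidesmosome subunit, lay at 1.29 to 2.97, 0.964 to 2.60 and 1.34 to 2.76 TPM, and no pair of lines differed beyond the spread. ITGB3, below the filter, was listed at 0.719 to 1.55 TPM in LAN-1 and 0 to 0.237 in KELLY.

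Among laminin-binding subunits, ITGA7 stood at 24.1, 26.3 and 33.4 TPM in the SKNAS control libraries, 6.18, 7.48 and 4.46 in those of LAN-1 and 0.660, 1.44 and 0.999 in those of KELLY, falling in that order without overlap between lines in either arm. SKNAS exceeded LAN-1 by 2.05 log2 units (SE 0.26, adjusted p = 2.99e-06) and LAN-1 exceeded KELLY by 1.79 log2 units (SE 0.26, adjusted p = 1.99e-05). ITGA3 stood at 9.58, 8.28 and 14.4 TPM in the SKNAS control libraries, 10.5, 10.5 and 7.42 in those of LAN-1 and 3.22, 6.35 and 5.08 in those of KELLY, with SKNAS and LAN-1 overlapping and both above KELLY (adjusted p = 0.00245 and 0.0102), the latter not called in 3 of 16 alternatives. ITGA6 was higher in LAN-1 control libraries, at 7.98, 8.90 and 7.24 TPM, than in SKNAS (-0.64 log2 units, SE 0.20, adjusted p = 0.0115) and KELLY (0.76 log2 units, SE 0.20, adjusted p = 0.00383), with the latter not called in 3 of 15 alternatives.

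ITGA4 and ITGA9 split the lines. ITGA4 stood at 28.6, 22.5 and 27.9 TPM in SKNAS controls and 2.53, 6.83 and 3.93 in KELLY controls, and was listed at 0 in all 6 LAN-1 libraries. SKNAS exceeded KELLY by 2.40 log2 units (SE 0.23, adjusted p = 1.06e-07). ITGA9 was lowest where ITGA4 was highest, at 0.202 to 0.935 TPM in SKNAS against 4.03 to 7.82 in LAN-1 and 2.44 to 5.77 in KELLY. SKNAS minus LAN-1 gave -2.66 log2 units (SE 0.23, adjusted p = 2.49e-08) for ITGA9, and the difference of LAN-1 and KELLY was not called in 10 of 15 alternatives.

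Of the RGD-binding subunits, ITGAV stood at 47.2, 36.2 and 38.9 TPM in the SKNAS control libraries, 32.7, 31.4 and 31.7 in those of LAN-1 and 7.58, 17.3 and 15.9 in those of KELLY. SKNAS and LAN-1 did not overlap but did not pass (0.33 log2 units, SE 0.22, adjusted p = 0.211), and both exceeded KELLY, by 1.58 log2 units (SE 0.22, adjusted p = 6.42e-06) and 1.25 log2 units (SE 0.22, adjusted p = 0.000133). ITGA5 lay at 8.75 to 11.7 TPM in SKNAS and 2.20 to 6.99 in KELLY, and did not pass 0.199 TPM in LAN-1. ITGA2B, known as the platelet subunit, was present in every library, at 4.47 to 7.25, 3.40 to 7.58 and 7.29 to 13.5 TPM in SKNAS, LAN-1 and KELLY. Of the 4 platelet markers PPBP and GP9 were listed at 0 in all 18 libraries, PF4 in 17 and GP1BB in 12. GP1BB averaged 1.19, 0.962 and 1.51 TPM in the Hmx1 arms of SKNAS, LAN-1 and KELLY, and 0.497, 0 and 0 TPM in the controls.

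Of the collagen-binding subunits, ITGA2 was listed at 0 or at most 0.0141 TPM in KELLY, against 2.51 to 5.20 in SKNAS and 1.44 to 2.66 in LAN-1, and SKNAS and LAN-1 did not differ beyond the test (0.36 log2 units, SE 0.17, adjusted p = 0.0912). ITGA1 lay at 2.50 to 6.56, 2.83 to 5.42 and 1.24 to 3.74 TPM, and its excess in SKNAS over KELLY (adjusted p = 0.0439) was not called in 12 of 15 alternatives. ITGA11 lay at 0.189 to 1.30, 0.413 to 1.18 and 0.323 to 0.868 TPM, and no control comparison passed. ITGAE stood at 29.7, 23.0 and 19.4 TPM in the SKNAS control libraries, 54.2, 60.1 and 54.4 in those of LAN-1 and 30.0, 39.1 and 40.1 in those of KELLY, with LAN-1 above SKNAS (-1.21 log2 units, SE 0.16, adjusted p = 7.48e-06 for SKNAS minus LAN-1). It was also higher in KELLY, SKNAS minus KELLY giving -0.59 log2 units (SE 0.16, adjusted p = 0.0047), which was not called when only those groups were fitted (adjusted p = 0.0695). Its excess in LAN-1 over KELLY (0.62 log2 units, SE 0.16, adjusted p = 0.00424) was not called in 4 of 16 alternatives.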

How the data were processed

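18 libraries of xenograft tumour RNA were sequenced as stranded paired 125 bp reads, per the labels' protocols. The authors deposited 1 gene table per library with read coverage (signal), FPKM and TPM, per the file headers. The submitters' processing notes name bcl2fastq, FastQC and STAR and the builds GRCh37 and GRCh38.p12, with no roles; the tables' coordinates ran past the last gene of GRCh38 on chromosome 1 and are given as GRCh37. The quantification tool, annotation, use of strand and treatment of mouse reads were not given in sources used here. No read counts were used and depth is unknown. Symbols were matched by Ensembl identifier (52181 of 63677). Genes with at least 1 TPM in at least 3 libraries (18650) were fitted on log2(TPM + 1) with limma 3.58.1 in R 4.3.3, as 6 group means with a trended variance, and called at a Benjamini-Hochberg adjusted p under 0.05; log2(TPM + 1) understates the change of low genes. The fit was tested on simulated data. Groups came from the labels, and replicate numbers follow accession order. Comparisons were Hmx1 against control in each line, the differences of those changes, and control tumours between lines. Values of 1 untested gene are not reported here. All 25 tested genes could be named, with per-library values for those called in the Hmx1 comparisons and the 12 of highest mean TPM. Per-library values of ITGA9, ITGA5 and ITGB3 were added after they were seen. Of each pathway list the 3 called genes with the largest change in a line were named. Markers chosen after their values were seen were DCN, PDGFRB, COL1A1, COL1A2, COL3A1, LYZ, CSF1R, ADGRE1, CD68, FCER1G, AIF1, CDH5, CLDN5, EMCN, VWF, KDR, TIE1, ESAM and GP1BB. The genes and lists were chosen with earlier results of these data known. Alternatives were other pseudocounts, filters, scalings, FPKM, fits of the compared groups alone and leaving out each library; scaled coverage was added after seeing the data.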

Additional observations from a re-analysis of the deposited data

Results flagged for a closer look

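The Hmx1 change differed between lines, by a test of the difference itself, for LAMA2 and ITGA6. The LAMA2 difference was -2.422 log2 units for SKNAS minus LAN-1 and -2.423 for SKNAS minus KELLY, and LAMA2 was near 0 TPM in the latter lines. The ITGA6 difference was 1.229 log2 units for SKNAS minus KELLY.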

How the results depend on the processing

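Calls were counted among the 25 tested genes. In SKNAS the 4 Hmx1 calls became 5 with a pseudocount of 0.1, 6 with no filter (38 tested), 1 with a mean TPM of at least 5 (14 genes tested), 2 on coverage in place of TPM (22 tested; chosen after seeing the data) and 2 to 4 with 1 library left out, the 2 being without the second Hmx1 library. The difference between SKNAS and LAN-1 (1 call) gave 2 with a pseudocount of 0.1, 0 with a mean TPM of at least 5, 2 with median-ratio scaling, 3 with only the compared groups fitted and 1 to 1 with 1 library left out. The difference between SKNAS and KELLY (2 calls) gave 3 with a pseudocount of 0.1, with quantile normalization, without mitochondrial transcripts and on FPKM (24 tested). It gave 1, 5, 1 and 1 with a mean TPM of at least 5, median-ratio scaling, coverage and only the compared groups, and 2 to 5 with 1 library left out, 5 being without the first KELLY control library. Control comparisons (15, 21 and 17 calls) gave 9, 13 and 11 with a mean TPM of at least 5, where 14 genes were tested, and 15 to 17, 20 to 21 and 15 to 19 with 1 library left out. Without mitochondrial transcripts SKNAS against LAN-1 controls gave 15 higher and 4 lower calls. LAN-1 Hmx1, KELLY Hmx1 and the difference of LAN-1 and KELLY stayed at 0 to 0. Except where fewer genes were tested, the cause was not tested. Of single calls, 1 of 4 Hmx1, 2 of 3 difference and 45 of 53 control calls were kept in every alternative that tested them, and 0 reversed. No paired analysis was possible because replicate numbers follow accession order and pair no libraries. Depth is unknown without counts, and 3 libraries a group limit the precision.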

Other observations

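ITGB2, ITGB3, ITGA10 and ITGB7, all below the level filter, differed between control tumours of some lines when no filter was applied. ITGB2, the beta subunit of leukocyte integrins, lay at 0.105 to 1.03 TPM in LAN-1, 0 to 0.156 in SKNAS and 0 to 0.0820 in KELLY, and control LAN-1 minus KELLY gave 0.76 log2 units (limma, adjusted p = 0.00299). ITGB3, a partner of ITGAV, lay at 0.719 to 1.55 TPM in LAN-1, 0.189 to 0.924 in SKNAS and 0 to 0.237 in KELLY, and gave 0.82 log2 units (adjusted p = 0.000254). In SKNAS, ITGB3 stood at 0.189, 0.303 and 0.348 TPM in the control and 0.924, 0.831 and 0.766 TPM in the Hmx1 arm (0.52 log2 units, adjusted p = 0.0264 without a filter), and ITGAM, at most 0.0553 TPM, was called as well (0.07 log2 units, adjusted p = 0.014). ITGA10 lay at 0.214 to 1.04 TPM in SKNAS, 0.0225 to 0.318 in LAN-1 and 0.0255 to 0.161 in KELLY, and SKNAS controls exceeded those of LAN-1 (adjusted p = 0.0371) and KELLY (adjusted p = 0.00651). ITGB7, listed at 0 in LAN-1 and KELLY and at 0.121 to 0.492 TPM in SKNAS, gave adjusted p of 0.0136 and 0.0107.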
